A study of Mus musculus with 6 samples.

Results

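Klf2, Klf4 and Klf5 are 3 members of the Krüppel-like factor family, and their transcript levels were followed here in differentiating mouse ESCs with and without forced expression of miR-200c and miR-141. The members were taken by gene symbol, as every probe set that the array annotation assigns to Klf2, Klf4 or Klf5 alone. This gave 6 of 45037 probe sets and 3 of 18193 genes, and the probe set with the highest mean stood for each gene. The samples were A2.miR200c ESCs, differentiated as embryoid bodies in Petri dishes without LIF. The induced cultures received 500 ng/mL doxycycline on day 2, with a second dose on day 4 that the day 3 culture did not reach, and the untreated cultures received none. RNA was taken on days 3, 4 and 5, and whether the day 4 RNA preceded the second dose is not given in the sources used here. Each treatment and day had 1 Affymetrix MOE430_2.0 array, so there were 3 induced and 3 untreated arrays and no replicate within a day. In this line the genomic miR-200c/141 cluster was placed behind a doxycycline-responsive promoter in A2lox ESCs by Cre recombination, and every culture carried it. Only this line is on the arrays, so the response to the microRNAs cannot be told apart from a response to doxycycline.

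The Krüppel-like factors are transcription factors with C2H2 zinc fingers near the carboxyl terminus that bind GC-rich and CACCC sequences. In mouse ESCs Klf2, Klf4 and Klf5 have overlapping roles in self-renewal. Klf4 is activated by LIF through STAT3 and is one of the classical reprogramming factors, Klf2 is known as a regulator of naive pluripotency and of endothelium, and Klf5 acts in the early embryo and in epithelia.

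The induced microRNAs are shown because their seeds (bases 2 to 8, in capitals) largely determine which transcripts they can pair with. The sequences are mature strands from RefSeq (GRCm38.p6), on the minus strand of chromosome 6 at chr6:124718324-124718346 for miR-200c and chr6:124717917-124717938 for miR-141.

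mmu-miR-200c-3p: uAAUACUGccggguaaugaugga

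mmu-miR-141-3p: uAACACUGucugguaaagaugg

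Counted from the 5′ end of miR-200c, the 2 seeds differ by the substitution U4C. In the same table miR-200b and miR-429 carry the miR-200c seed and miR-200a carries the miR-141 seed. The arrays did not measure these microRNAs, and 4 genes known to respond to them were read instead. Cfl2, an actin-severing cofilin and known miR-200 target, had intensities of 941, 833 and 743 in induced cultures on days 3, 4 and 5, against 1686, 1568 and 1922 in untreated cultures. Zeb2, a repressor of E-cadherin and known target, had 24.8, 32.7 and 55.9 in induced cultures, against 43.7, 97.6 and 237 in untreated cultures. Both genes were lower on each induced array than on the untreated array of that day. On the induced day 3 and day 4 arrays Zeb2 was below the background level of 36.7 used here. Zeb1, a related repressor, had 132, 196 and 169 in induced cultures, against 131, 256 and 403 in untreated cultures. Cdh1, the gene of E-cadherin, had 7725, 8596 and 7719.8 in induced cultures, against 7232, 7458 and 3963 in untreated cultures. None of the 4 passed for induction, and no other tested gene did.

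Intensities are the authors' model-based values on a linear scale. Differences were taken on log2(intensity + 50), which understates the change of low genes, and a level of 36.7 (the 95th percentile of 78 sensory receptor genes) served as background. On the arrays 48.8 to 50.1% of probe sets were above background. Of the 8 core pluripotency genes on the arrays, Pou5f1, Sox2 and Nanog among them, all were above background on each array except Foxd3, an ESC transcription factor, on the untreated day 5 array (5.14). Tests across genes used limma on the 9997 genes that passed a filter on low values, and Klf2, Klf4 and Klf5 all passed it. The p-values measure only the spread between days, as each day had 1 culture per treatment. In bulk cultures fewer cells with a transcript and less transcript per cell cannot be told apart.

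Klf2 was lower on each later day in both treatments, and on each day it was higher in the induced culture. Its only probe set, 1448890_at, had intensities of 235, 123 and 77.7 on days 3, 4 and 5 in induced cultures, against 221, 88.9 and 45.0 in untreated cultures. Every array was above background, the untreated day 5 array by a narrow margin. From day 3 to day 5 the log2 change was -1.16 in induced cultures and -1.51 in untreated cultures. Both were past 2-fold, a size of decline that 3.07% of tested genes reached in induced and 4.86% in untreated cultures. Over both treatments Klf2 fell by 1.33 ± 0.13 (SE) on the log2 scale between days 3 and 5 (adjusted p = 0.0032), and 19.2% of tested genes were called lower in this comparison.

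The difference between treatments in Klf2 was small. Induced minus untreated, the log2 difference was 0.07 on day 3, 0.32 on day 4 and 0.43 on day 5. As plain ratios of intensity, the induced culture was 1.07-fold, 1.38-fold and 1.73-fold the untreated one. No day reached 2-fold on the log2(intensity + 50) scale. On day 4 only 10.6% of tested genes were at least as far apart as Klf2 and on day 5 14.6% were. The mean difference was 0.27 ± 0.18 (SD, n = 3 days), higher in 3 of 3 days, as were 19.3% of tested genes, with a 95% interval of 0.0048 to 0.54. This did not pass over all genes (adjusted p = 0.573).

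**Figure D1:**
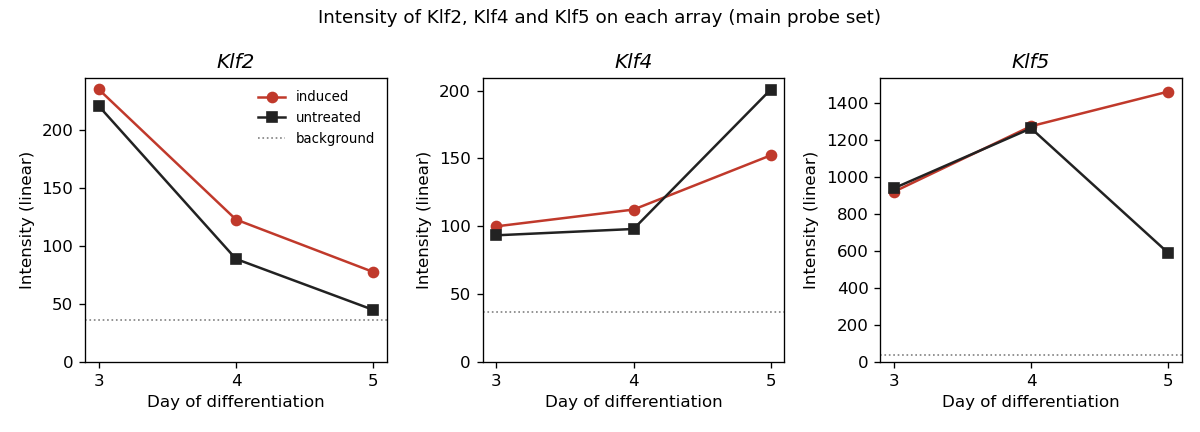
Intensity of the main probe sets of Klf2, Klf4 and Klf5 (vertical axis, linear, from 0) by day of differentiation (horizontal axis, days 3 to 5), 1 array per point, with induced cultures as red circles, untreated cultures as black squares and the background of 36.7 dotted. Klf2 was lower on each later day, Klf4 was highest on day 5, and Klf5 reached 1464 in the induced and 590.2 in the untreated culture on day 5.

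Klf4 ran the other way, with its highest values on day 5. Its main probe set, 1417394_at, had intensities of 100, 112 and 152 on days 3, 4 and 5 in induced cultures, against 93.4, 98.1 and 200.8 in untreated cultures. From day 3 to day 5 its log2 change was 0.43 in induced and 0.81 in untreated cultures. The untreated change fell almost wholly between days 4 and 5 (0.76), with 0.05 between days 3 and 4. Over both treatments Klf4 rose by 0.62 ± 0.15 (SE) between days 3 and 5 (adjusted p = 0.026), where 20.6% of tested genes were called higher. Without day 4 the same change of 0.62 no longer passed (adjusted p = 0.057).

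The induced and untreated cultures lay close in Klf4 before day 5. The log2 difference was 0.06 on day 3 and 0.13 on day 4, and it was -0.31 on day 5, where the plain ratio of the induced to the untreated intensity was 0.759. On day 5, 23% of tested genes were at least as far apart. The mean over days was -0.04 ± 0.24 (SD, n = 3 days), with a 95% interval of -0.34 to 0.27, and did not pass (adjusted p = 0.930). Without day 5 the mean difference was 0.10 (adjusted p = 0.873).

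Klf5 had the largest difference between treatments of the 3 genes, and it lay on day 5. Its main probe set, 1451021_a_at, had intensities of 921.5, 1277 and 1464 on days 3, 4 and 5 in induced cultures, against 941, 1265 and 590.2 in untreated cultures. From day 3 to day 4 the log2 change was similar, 0.45 in induced and 0.41 in untreated cultures. From day 4 to day 5 Klf5 changed by 0.19 in the induced culture and by -1.04 in the untreated culture. The untreated day 5 array was thus the lowest of the 6, and the induced day 5 array the highest.

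On day 5 Klf5 was 2.36-fold higher in the induced culture on the log2(intensity + 50) scale, a log2 difference of 1.24, and the plain ratio was 2.48. It was the only one of the 3 genes past 2-fold on any day. On that day 1.97% of tested genes were at least 2-fold higher with induction, and Klf5 was the 109th highest of 9997. On day 3 its difference was -0.03 and on day 4 it was 0.01, and 81.7% and 93% of genes were at least as far apart. None of the 3 genes was 2-fold apart on day 3 or day 4, where 0.02% and 0.58% of tested genes were, in either direction.

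The mean difference of Klf5 was 0.41 ± 0.72 (SD, n = 3 days), with a 95% interval of -0.28 to 1.10 (adjusted p = 0.655), and without day 5 it was -0.01. Day 5 minus day 3 over both treatments came to 0.01 (adjusted p = 0.993), since the induced change of 0.64 and the untreated change of -0.63 offset each other. A change of at least 0.5 upward in induced cultures together with one of at least 0.5 downward in untreated cultures was found in 0.15% of tested genes. That count took only the direction of the main Klf5 probe set, so it does not measure how unusual Klf5 was. The second Klf5 probe set, at 0.55 in induced and 0.03 in untreated cultures, did not meet these limits. The straight line fitted to the difference between treatments grew by 0.63 ± 0.16 (SE) per day for Klf5, with a 95% interval of 0.23 to 1.03. This growth did not pass over all genes (adjusted p = 0.220). The daily differences were -0.03, 0.01 and 1.24, so nearly all of it lay between days 4 and 5. The SE used a variance moderated over all tested genes, with 1 residual degree of freedom. For Klf2 the growth was 0.18 per day (adjusted p = 0.547), and for Klf4 it was -0.19 (adjusted p = 0.573).

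For induction over days 3 to 5, limma called 0 of 9997 genes (0%). No adjusted p was below 0.573, although 842 genes were under 0.05 before adjustment. The growth of the difference per day was likewise called for 0 genes (0%). These fits had 2 and 1 residual degrees of freedom, and with the growth per day included in the fit 1.03% of genes were called higher with induction. In that fit Klf2 and Klf5 had adjusted p-values of 0.221 and 0.214 and were not among them. An exact permutation of the treatments within days gave two-sided p = 0.25 for Klf2, 1 for Klf4 and 0.75 for Klf5, and 0.25 is the smallest p this design can give.

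Within each gene the 6 levels were ordered and each gap set against the spread of a difference between 2 arrays. That spread came from the moderated residual variance of the fit with treatment by linear day. It combined 1 residual degree of freedom of the gene with a median of 4.78 prior degrees of freedom taken from all tested genes. The spread was thus in large part not the gene's own. For Klf2, whose spread was 0.15, the 2 day 3 arrays led and did not differ beyond it, nor did the induced day 5 and untreated day 4 arrays. For Klf4, with a spread of 0.17, the untreated day 5 array stood above the induced day 5 array by 0.31 and that one above the induced day 4 array by 0.32. The induced day 4 and day 3 and the untreated day 4 and day 3 arrays followed without a gap beyond the spread. For Klf5, with a spread of 0.23, induced day 5, induced day 4 and untreated day 4 formed the top without a gap beyond the spread. The day 3 arrays followed 0.41 lower, and the untreated day 5 array was a further 0.60 below. With the spread from the fit of day and treatment alone, chosen after seeing the data and 0.47 for Klf5, the gap of 0.41 was within it, and no other gap of the 3 genes changed sides. Across the 6 arrays, which share days and treatments, Pearson's r was -0.81 between Klf2 and Klf4, 0.11 between Klf2 and Klf5 and -0.44 between Klf4 and Klf5, so the 3 genes did not follow one course.

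The other probe sets were used as a check. The second Klf4 probe set, 1417395_at, had 61.9, 68.0 and 115 in induced cultures on days 3, 4 and 5, against 62.7, 66.7 and 158 in untreated cultures. It followed the main one closely (r = 0.99 over 6 arrays), with a day 5 difference of -0.33. Klf5 was less uniform. Its second probe set, 1451739_at, had 116, 71.1 and 193 in induced cultures, against 95.1, 64.7 and 97.7 in untreated cultures. It shared the day 5 difference in direction, at 0.72, but not the lower untreated level on day 5, with an untreated change of 0.03 from day 3 to day 5. Its r with the main probe set was 0.16. The third, 1430255_at, lay between 12.3 and 16.02 in induced cultures and between 8.85 and 17.7 in untreated cultures, below background on all 6 arrays, and gives no direction. The main Klf5 probe set has a name ending that Affymetrix gives to sets matching several transcripts of one gene.

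**Figure D2:**
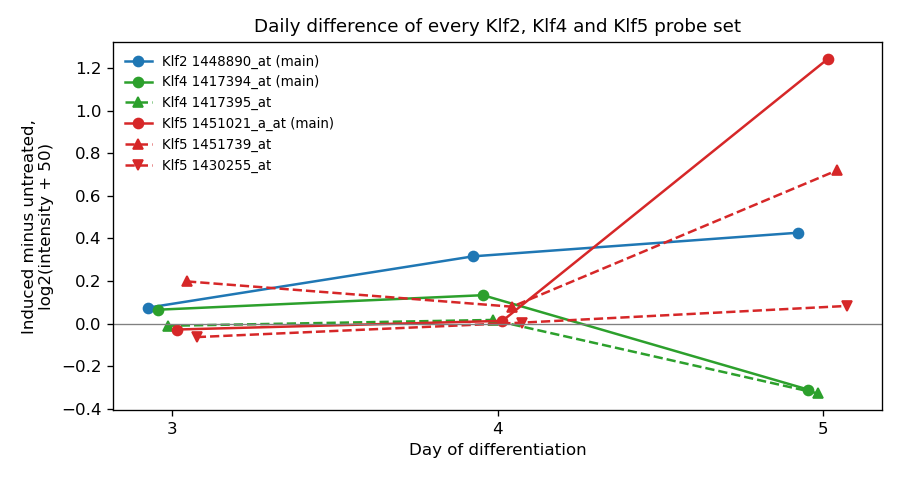
Log2(intensity + 50) of the induced minus the untreated array (vertical axis) on days 3, 4 and 5 (horizontal axis, points slightly offset) for the 6 probe sets of Klf2 (blue), Klf4 (green) and Klf5 (red), main probe sets with solid lines and others dashed. On day 5 the main Klf5 probe set stood at 1.24, its second at 0.72 and the Klf4 probe sets at -0.31 and -0.33.

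Of 23 other Klf and Sp family genes, which share the zinc finger type, 20 were on the arrays and 17 were tested. With induction 0 passed in either direction, as with all 9997 tested genes. On day 5 the induced culture had 11 of them higher and 6 lower, with a median difference of 0.12 against 0.02 over all tested genes. Past 2-fold was 1 of the 17, where 1.97% of all tested genes were at least 2-fold higher. That gene was Sp5, a target of Wnt signalling, with 93.7, 1378 and 1850.0 in induced cultures on days 3, 4 and 5, against 98.0, 1955 and 627 in untreated cultures. Like Klf5 it was above the untreated culture on day 5, by 1.49 on the log2 scale, but on day 4 it stood at -0.49. Klf9, a glucocorticoid and thyroid hormone responsive factor, had a day 5 difference of 0.60 and Klf7 of 0.17. Between days 3 and 5, 2 of the 17 rose, Sp5 by 2.96 (adjusted p = 0.0092) and Klf6 by 1.25 (adjusted p = 0.0023), and 4 fell. Those that fell were Klf9 (-0.92, adjusted p = 0.015), Klf7 (-0.62, adjusted p = 0.0075), Klf16 (-0.42, adjusted p = 0.025) and Sp1 (-0.21, adjusted p = 0.018). Of all tested genes 20.6% rose and 19.2% fell in this comparison. Klf6 and Klf16 were named after their values were seen. Among the 20 tested genes of the family with Klf2, Klf4 and Klf5 included, Klf5 had the second highest day 5 difference after Sp5.

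**Figure D3:**
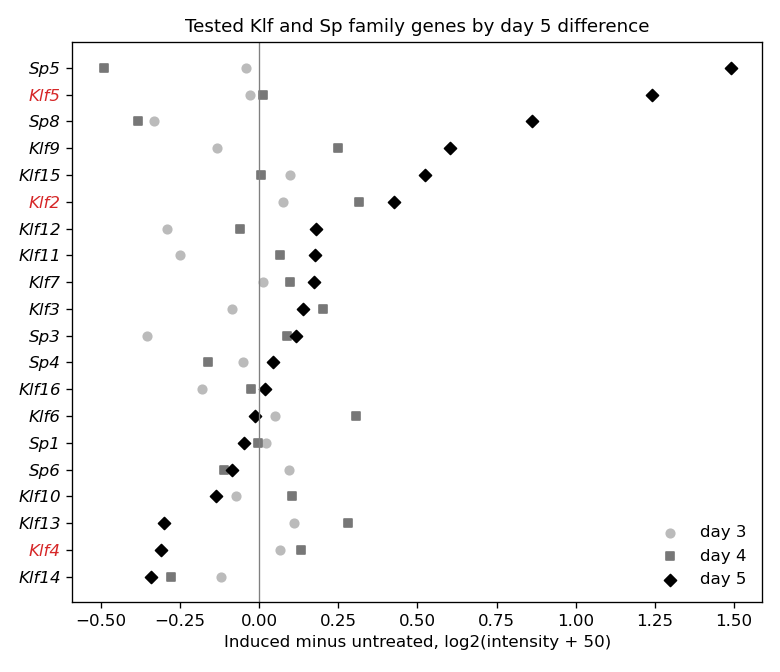
Induced minus untreated log2(intensity + 50) (horizontal axis) on day 3 (light circles), day 4 (grey squares) and day 5 (black diamonds) for the 20 tested Klf and Sp genes, ordered by day 5, with Klf2, Klf4 and Klf5 in red. Sp5 (1.49) and Klf5 (1.24) lie furthest right on day 5, and Klf4 (-0.31) is among the lowest.

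Genes around Klf4 in the LIF and STAT3 pathway did not differ between treatments past the threshold, and no other tested gene did. Of 15 listed, 11 were tested, 0 passed for induction, and the median day 5 difference was -0.06. Between days 3 and 5, 6 of the 11 rose, as Klf4 did, and 1 fell, against 20.6% and 19.2% of all tested genes. Lifr, the LIF receptor, rose by 1.60 (adjusted p = 0.0016) and Il6st, its signalling partner gp130, by 0.53 (adjusted p = 0.019). Fosl2, an AP-1 subunit, rose by 1.46 (adjusted p = 0.0024), while Pim1, a STAT3-induced kinase, fell by 1.24 (adjusted p = 0.0050).

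Many of the naive ESC genes that act beside Klf2 fell over the same days. Of 18 listed, 12 were tested, 7 fell and 2 rose between days 3 and 5, against 19.2% and 20.6% of all tested genes, and the median change was -1.13 in induced and -1.24 in untreated cultures. Zfp42, also called Rex1, fell by 1.92 (adjusted p = 0.0026) and Dppa5a, an ESC RNA-binding protein gene, by 1.76 (adjusted p = 0.0018). Tbx3, a T-box factor also made in mesoderm, rose by 3.45 (adjusted p = 0.0023). On day 5, 9 of the 12 were higher and 3 lower in the induced culture, with a median of 0.10 against 0.02 over all tested genes. Of the 12, 0 were past 2-fold, where 1.97% of all tested genes were at least 2-fold higher. Core pluripotency genes stood nearer to Klf5 on that day, with a median difference of 0.85 and 8 of 8 higher in the induced culture. Nanog had a day 5 difference of 1.85, Pou5f1, the gene of Oct4, 1.49, Utf1, a chromatin-associated ESC factor, 1.22 and Sox2 0.94. Past 2-fold were 3 of the 8, against the same 1.97% of all tested genes. The core list was chosen with earlier results of these data known, so this comparison is a description and no test. For induction 0 of the 8 passed, as with all 9997 tested genes.

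Most blood and endothelium markers, 16 of 20, were highest on the untreated day 5 array, where Klf4 was highest and Klf2 and Klf5 lowest. How many of all genes were highest on that array was not counted, and only 11 of the 20 passed the filter on low values. The summed intensity of the 20 markers was 1188 to 3352 in induced and 1224 to 9190 in untreated cultures, highest on day 5 in both. On the untreated day 5 array 4 of the 20 were at or below background, against 9 on the induced one. There Hbb-bh1, an embryonic globin, had 40.0 in the induced and 1600.4 in the untreated culture, and Tal1, a regulator of blood formation, 30.4 in the induced and 389 in the untreated culture. The 10 feeder fibroblast markers summed to 291 to 410 in induced cultures and to 284 to 1148 in untreated cultures. Only 5 of the 10 were highest on the untreated day 5 array, and Col1a1, a collagen gene, made up 577 of that sum. On day 5 Twist2 had 29.5 in the induced and 176 in the untreated culture, and Postn 24.8 and 83.2. On the untreated day 5 array 4 of the 10 were at or below background, against 7 on the induced one. Among those 4 were Thy1, a fibroblast surface marker, at 28.5 and Dcn, the gene of decorin, at 3.77. The part of these cell types in the values of Klf2, Klf4 and Klf5 was not tested.

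Klf5 is also known from trophectoderm and epithelia. The 9 trophoblast markers on the arrays summed to 770 to 3870 in induced and 1070 to 4158 in untreated cultures, most of it Eomes, which is also a primitive streak gene. Elf5, named as a defining trophoblast factor, lay below background on all 6 arrays. Of the 5 tested, 2 had a day 5 difference in the direction of Klf5, Eomes at 0.64 among them, and 3 in the opposite direction. How many of all tested genes were at least 2-fold lower on day 5 was not counted. The 2 list members past 2-fold on day 5 were among the 3 that ran opposite to Klf5. Cdx2, a trophectoderm factor also made in posterior mesoderm, had 66.4 in the induced and 485 in the untreated culture, and Hand1, a factor of trophoblast and mesoderm, 128 in the induced and 528 in the untreated culture. Extraembryonic endoderm markers summed to 2787 to 10699 in induced and 2944 to 9543 in untreated cultures. Of the 10 tested, 6 rose between days 3 and 5, Sox17, Foxa2 and Gata4 among them, and 0 fell. Of all tested genes 20.6% rose and 19.2% fell. Sox7 (1.44), Amn (-0.40), Cubn (-0.44) and Dab2 (-0.10) did not pass, and Afp, Ttr and Apoa1 were not tested. Sox17 and Foxa2 are not specific to this tissue, as the paper names Sox17 among epiblast markers and Foxa2 among targets of nodal/activin signalling. On day 5 Foxa2 had 1346 in the induced and 582 in the untreated culture, and Sox7 166.5 and 756. Afp, a visceral endoderm product, was below background throughout. All 15 epithelial genes listed were tested, and on day 5 the induced culture had all 15 higher. Their median difference was 0.97, against 0.02 over all tested genes. Of the 15, 7 were past 2-fold, where 1.97% of all tested genes were at least 2-fold higher. The epithelial list was chosen with earlier results of these data known, so this comparison is a description and no test. For induction 0 passed, as with all 9997 genes. Cldn7, a claudin, was the furthest apart at 2.06, followed by Epcam at 1.97 and the splicing factor Esrp1 at 1.96. Their part in the Klf5 values was not tested.

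The genes most like each member were those with the highest Pearson correlation over the 6 arrays, given as a description. For each of the 3, 1564 or 1565 genes with a range of at least 1 on the log2 scale were compared, over 6 points that share 3 days and 2 treatments. For Klf2 these were Dtx4, Slc25a40, Dpp7, Sall2 and Ramp3 (r = 0.996 to 0.997). Sall2, a zinc finger factor, had 512, 301 and 188 in induced cultures on days 3, 4 and 5, against 481, 202 and 136 in untreated cultures. Like Klf2 it was lower on each later day and higher in the induced culture on each day.

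For Klf4 the closest genes were Sgms1, Arhgap6, Elovl1, Podxl and Gab2 (r = 0.991 to 0.997). Podxl, the sialomucin podocalyxin, had 612, 807 and 1714 in induced cultures, against 591, 626 and 2443 in untreated cultures. For Klf5 they were Elovl7, Lratd2, Fgf5, Trim67 and Cth (r = 0.972 to 0.987). Fgf5, a marker of primitive ectoderm, had 1236, 2833 and 2715 in induced cultures, against 1265, 2746 and 499 in untreated cultures. Like Klf5 it was close between treatments on days 3 and 4 and apart on day 5.

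**Figure D4:**
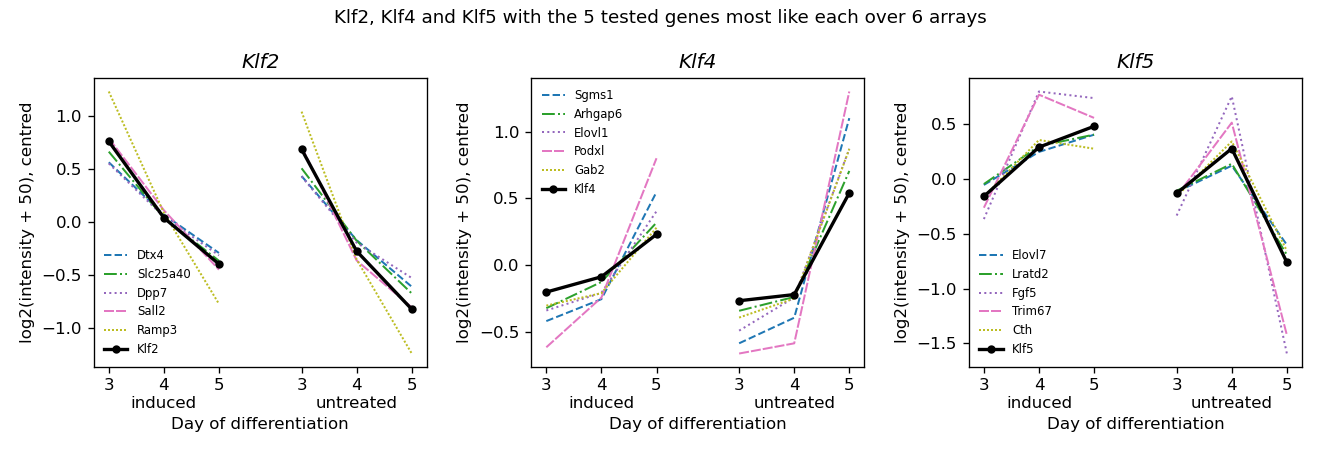
Log2(intensity + 50), centred on each gene's mean over the 6 arrays (vertical axis), on days 3, 4 and 5 of induced (left of each panel) and untreated cultures (right), for Klf2, Klf4 and Klf5 (black) and the 5 tested genes with the highest correlation to each. The Klf5 panel shows Fgf5 and the others lowest on the untreated day 5 array.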

How the data were processed

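Gene expression was measured on 6 Affymetrix MOE430_2.0 arrays, 3 induced and 3 untreated, from labelled cRNA of total RNA. The authors normalized and modelled the data in DNA-Chip Analyzer (dChip), and the deposited values are model-based intensities per probe set on a linear scale, without detection calls. The dChip version is not given in the sources used here. The number of arrays limits the precision.

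Of 45037 probe sets, 34945 carried 1 gene symbol in the platform annotation, 932 several and 9160 none, and only the first were used. Genes were tested if their highest intensity reached the median of all gene values (80.1). Intensities were transformed as log2(intensity + 50) and fitted in R 4.3.3 with limma 3.58.1 (lmFit, eBayes with an intensity trend) with day as a factor and treatment, and with treatment by linear day for the growth of the difference. Tests were two-sided, with Benjamini-Hochberg adjustment over 9997 genes at 0.05. In the first fit the error is the departure of daily differences from a constant one. Differences within 1 day rest on 2 arrays and carry no test. Figures were drawn in Python with matplotlib 3.10.9.

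Alternatives covered pseudocounts of 16 and 100, no filter, quantile normalization, scaling to a common median, other probe sets, no intensity trend, leaving out each day and treatment by linear day in the fit. Genes named were Klf2, Klf4 and Klf5, of each of 13 gene lists up to 4 tested genes that were 2-fold apart on any day or passed a test, taken by day 5 difference, 4 miR-200 response genes and the 5 genes most like each member. Outside this rule, Foxd3, Elf5, Afp, Thy1 and Dcn are given as markers at or below background, and Klf6, Klf16 and Myc were chosen after their values were seen. Amn, Cubn, Dab2, Ttr and Apoa1 are given as extraembryonic endoderm markers that did not pass or were not tested. Members and lists were chosen with earlier results of these data known.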

Additional observations from a re-analysis of the deposited data

Results flagged for a closer look

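Klf5 changed in opposite directions in the 2 treatments from day 3 to day 5, by 0.64 in the induced and by -0.63 in the untreated cultures on the log2(intensity + 50) scale. Each value rests on 2 arrays. The growth of the difference per day did not pass over all genes (limma adjusted p = 0.220). With the second Klf5 probe set the change was 0.55 in induced and 0.03 in untreated cultures. Blood and endothelium genes summed to 3352 on the induced and 9190 on the untreated day 5 array, and their part in this value was not tested.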

How the results depend on the processing

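Klf2, Klf4 and Klf5 passed the threshold for induction, and for its growth per day, under none of the alternatives, with adjusted p-values for induction of 0.221 to 0.955, 0.774 to 0.965 and 0.214 to 0.986, in that order. Klf2 fell from day 3 to day 5 past the threshold under all 10 alternatives (adjusted p = 0.0005 to 0.015), and Klf4 rose under 10 of 11 (adjusted p = 0.0093 to 0.057). The exception was without day 4, where 4 arrays remain. Leaving out each day, the mean induction difference ranged from 0.20 to 0.37 for Klf2, from -0.12 to 0.10 for Klf4 and from -0.0078 to 0.63 for Klf5. The signs of Klf4 and Klf5 turned without day 5. The number of genes called for induction ranged from 0 to 2 when a day was left out and was 145 with treatment by linear day in the fit. The day 5 minus day 3 count was 3984, 2454 without day 4 and 6661 over all probe sets. The growth per day was called for 11 genes with a pseudocount of 100 and 155 probe sets when all were tested. Klf5 day 5 minus day 3 was -0.0695 with quantile normalization.

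Sizes without a test depended on the pseudocount and the probe set. With a pseudocount of 16, Klf2 differed on day 5 by 0.62 and changed from day 3 to day 5 by -1.42 in induced and -1.96 in untreated cultures, and Klf4 by 0.99 in untreated cultures. With 100, Klf2 changed by -0.92 in induced and -1.15 in untreated cultures. Averaged over probe sets, Klf5 differed on day 5 by 0.68 and changed by 0.38 in induced and -0.27 in untreated cultures. The probe set 1451739_at gave a day 5 difference of 0.72 and an untreated change of 0.0251. The probe set 1430255_at, below background throughout, gave 0.0827 on day 5 and changes of -0.0554 in induced and -0.20 in untreated cultures. Pairing by replicate was not possible because the labels give no replicate numbers. The fit of day and treatment already sets the 2 arrays of a day against each other.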

Other observations

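Klf2 and Klf4 are also known as immediate early genes of serum and stress responses, so that group was read on the same arrays. Of 19 listed, 16 were tested and 0 passed for induction, as with all 9997 tested genes. In the induced culture 12 were higher on day 3, 13 on day 4 and 13 on day 5, by medians of 0.13, 0.26 and 0.26, where the medians over all tested genes were 0.00, 0.02 and 0.02. Ccn2, a matricellular growth factor gene, had 2907, 3073 and 2223 in induced cultures on days 3, 4 and 5, against 2655, 1891 and 1091 in untreated cultures. Ccn1 differed by 0.81, Dusp1, a MAP kinase phosphatase, by 0.57 and Egr3 by 0.25 on day 5. Myc, named after its values were seen, went the other way at -0.89 on day 5. Of the 16, 5 rose and 3 fell between days 3 and 5, against 20.6% and 19.2% of all tested genes.

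Of 15 genes of the p53 response and cell cycle arrest, 12 were tested and 0 passed for induction, as with all 9997 tested genes. Their median day 5 difference was 0.06. The 1 gene past 2-fold was Sesn1, a sestrin of the stress response. Sesn1 had 325 in the induced and 722 in the untreated culture on day 5, a difference of -1.04. The share of all tested genes at least 2-fold lower on day 5 was not counted. Cdkn1a, a cyclin-dependent kinase inhibitor and known Klf4 target, had 514, 745 and 1012 in induced cultures on days 3, 4 and 5, against 553, 808 and 820 in untreated cultures. Cdkn1a rose by 0.72 between days 3 and 5 over both treatments (limma adjusted p = 0.012), while Gadd45a fell by 1.07 (limma adjusted p = 0.0061). Of the 12, 3 rose and 3 fell, against 20.6% and 19.2% of all tested genes.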
